A study of Mus musculus with 8 samples.

Results

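The 10 genes described here handle iron in the cell or belong to the STEAP family of metalloreductases: Steap1, Steap2, Steap3, Steap4, Hmox1, Slc40a1, Fth1, Ftl1, Tfrc and Cp. They were taken by gene symbol from a table of 22520 genes measured by RNA sequencing in 8 mouse libraries, and all 10 were found and passed the filter on low values, with at least 1 FPKM in every library. The set was in part chosen by the difference in FPKM between these groups, since Steap4 was known to be among the genes with the largest falls, so for Steap4 the difference between the groups is given as a description with no test. The study compared LRP1 KO with wild-type (WT) libraries, 4 of each, to screen for factors that endothelial cells secrete when LRP1, a large endocytic receptor of the LDL receptor family, is lost. Both groups came from mice with floxed Lrp1 alleles on the C57BL/6 strain named in the labels, at postnatal day 14. As the study describes them, the KO mice (LRP1 f/f; Cdh5-CreER+/-) carried a tamoxifen-inducible Cre recombinase driven by the promoter of the endothelial cadherin gene Cdh5, and their WT littermates (LRP1 f/f; Cdh5-CreER-/-) did not. By its labels, a library mixed microvascular cells of 3 organs, heart, liver and lung, and the study's methods describe selection of such cells with beads against PECAM-1. The study itself speaks of liver cells and of heart and lung cells as separate preparations, which the labels of these libraries do not, so what each library was made from is uncertain. Nothing in the labels says whether the 4 libraries of a group came from separate mice, so p-values measure only the spread between these libraries.

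Iron enters most cells bound to transferrin, which is taken up by the transferrin receptor TFRC, and ferric iron released in the endosome must be reduced before it can cross the membrane. STEAP proteins are membrane metalloreductases that pass electrons to iron or copper, and STEAP3 is known as the endosomal ferrireductase of erythroid precursors. Inside the cell, ferritin, a shell of heavy (FTH1) and light (FTL1) chains, stores iron. Heme oxygenase 1 (HMOX1) frees iron from heme, ferroportin (SLC40A1) exports it, and the copper protein ceruloplasmin (CP) oxidises it for loading onto transferrin. LRP1 itself is known as the receptor for complexes of heme with hemopexin.

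Part of this system is set at the level of the mRNA. Iron regulatory proteins bind a hairpin called the iron responsive element (IRE): in a 5′ untranslated region (UTR) it blocks translation and leaves the mRNA level largely alone, and in the 3′ UTR of Tfrc it protects the mRNA from decay when iron is low. The letters below are printed because they show which members carry that switch and on which end of the mRNA. Transcripts of 21901 protein-coding genes (GENCODE M21, genome build GRCm38) were searched on the sense strand for the letters CNNNNNCAGTGN, with the 5 bases after the first C paired to the 5 bases after the loop and at least 4 of 6 pairs in the stem beneath (G with T allowed). Elements of this form were found in 47 genes, 0.215% of those searched, and in 4 of the 10 members. The 3 elements in 5′ UTRs and the 4 in the 3′ UTR of Tfrc are written 5′ to 3′ on the strand of the gene, with the loop in capitals.
Fth1, 5′ UTR, chr19:9982732-9982760, plus strand: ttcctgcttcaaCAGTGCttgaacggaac
Ftl1, 5′ UTR, chr7:45459779-45459807, minus strand: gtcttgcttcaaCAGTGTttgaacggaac
Slc40a1, 5′ UTR, chr1:45925465-45925493, minus strand: caacttcagctaCAGTGTtagctaagttt
Tfrc, 3′ UTR, chr16:32631219-32631247, plus strand: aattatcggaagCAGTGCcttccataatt
Tfrc, 3′ UTR, chr16:32631598-32631626, plus strand: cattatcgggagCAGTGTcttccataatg
Tfrc, 3′ UTR, chr16:32631663-32631691, plus strand: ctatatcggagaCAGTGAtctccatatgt
Tfrc, 3′ UTR, chr16:32631710-32631738, plus strand: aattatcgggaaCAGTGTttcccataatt
No letters of this form were found in transcripts of the STEAP genes, Cp or Hmox1, which says only that this pattern is not there. The pattern was loosened to 4 lower pairs after a search with at least 5 found 15 genes and only 3 of the members, without Fth1.

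Expression values were FPKM (sequenced fragments corrected for transcript length and library size), quantile normalized across the libraries by the authors. The unit was inferred from the values and the submitters' processing notes, and such values make levels of different genes comparable per length. The targeted gene separated the groups: Lrp1 was between 103 and 140 FPKM in WT, and at 3.45, 5.20, 2.79 and 7.72 in LRP1 KO 1 to 4. LRP1 KO 4 stood apart from the other KO libraries. On the first principal component, which held 60.8% of the variance, the WT libraries lay between -24.1 and -12.9, LRP1 KO 1 to 3 between 17.2 and 27.3 and LRP1 KO 4 at 0.10. Markers of the labelled cell type were low beside those of another. The summed level of 15 endothelial genes was 147 to 162 FPKM in WT, against 2415 to 3610 for 11 fibroblast genes, and Pecam1, the gene of the selection antigen, was at 6.80 to 8.76. In LRP1 KO the endothelial sum was 157 to 528, with the lowest value in LRP1 KO 4. The sum of 12 macrophage genes was 103 to 125 in WT and 241 to 565 in LRP1 KO, with no overlap.

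The members spanned a wide range of levels. In WT the order by mean level was Fth1 (6571 FPKM), Ftl1 (3683), Hmox1 (417), Cp (220.3), Steap4 (136), Steap2 (32.2), Steap1 (21.0), Steap3 (5.42), Tfrc (5.29) and Slc40a1 (2.88). Neighbours in that order did not overlap in any library, except Cp with Steap4 and Steap3 with Tfrc, whose ranges overlapped. In LRP1 KO the order was the same down to Cp, but Steap4 (41.6) came level with Steap2 (40.8), with overlapping ranges, and Tfrc (7.74) stood above Steap3 (3.87) with no overlap. Storage genes were the most abundant members in both groups, and the importer Tfrc and the exporter Slc40a1 were among the least.

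**Figure D1:**
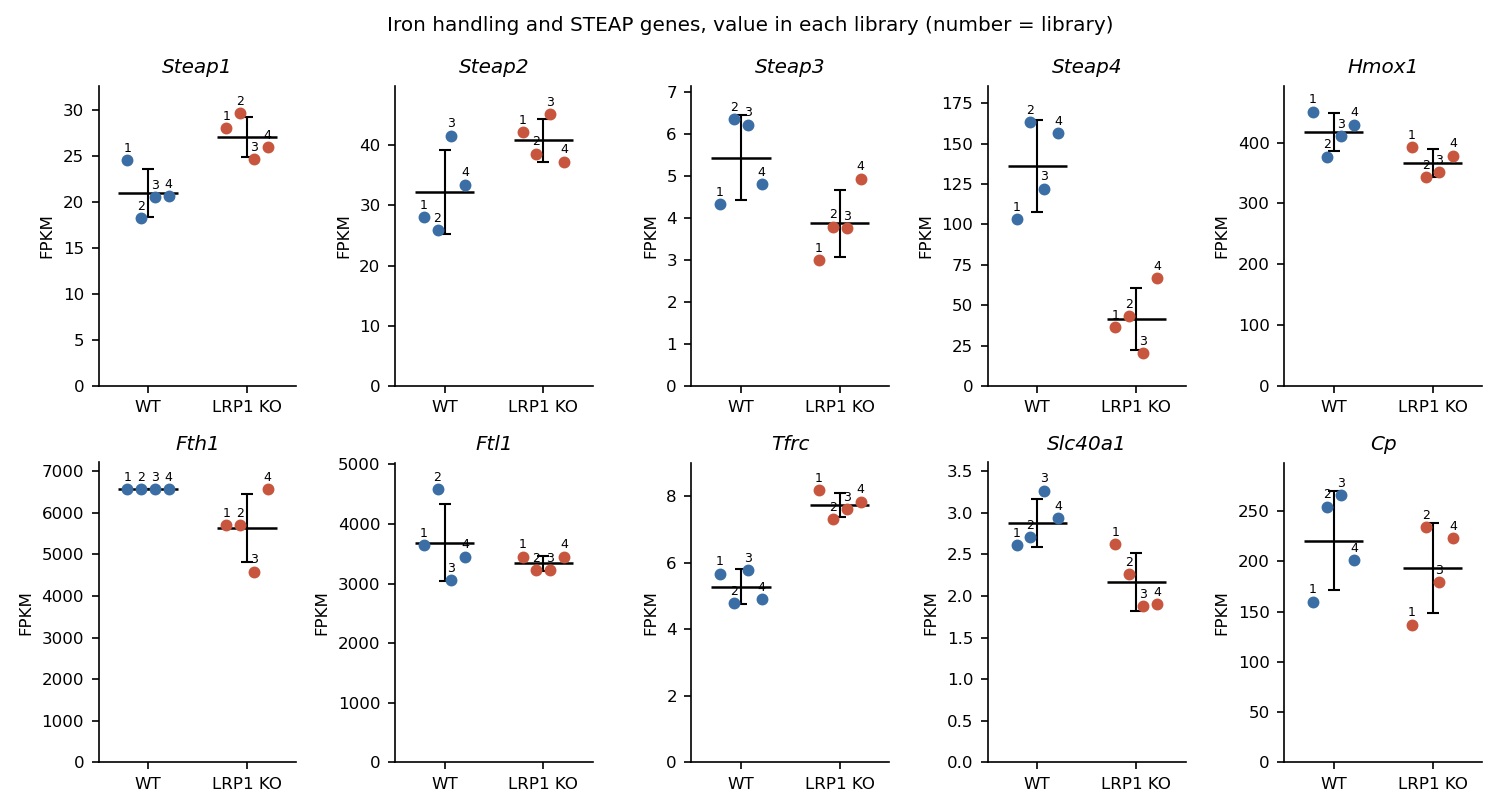
FPKM (linear axis from 0) of each of the 10 members in the 4 WT and 4 LRP1 KO libraries, with the library number above each point, the group mean as a long bar and the SD as an error bar. Steap4 lies between 103 and 163 in WT and between 20.4 and 66.6 in LRP1 KO, while Steap1 and Tfrc are higher in every LRP1 KO library than in any WT library.

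Steap4 (chr5:7960457-7982213, plus strand), a STEAP member known from adipocytes and inflamed tissue, was at 103, 163, 122 and 156 FPKM in WT 1 to 4. It was at 36.4, 43.2, 20.4 and 66.6 in LRP1 KO 1 to 4. The groups did not overlap, the KO libraries all being lower, and the highest KO value was that of LRP1 KO 4. The mean went from 136 ± 28.5 to 41.6 ± 19.2 FPKM (SD, n = 4), which is 30.6% of WT, and the log2 difference of FPKM + 1 was -1.78 (SE 0.31). Among all genes of a library Steap4 ranked between 460 and 764 in WT and between 1216 and 3831 in LRP1 KO. Without LRP1 KO 4 the log2 difference was -2.04, and without LRP1 KO 3, the library with the lowest value, it was -1.49. In libraries of mixed cells such as these, fewer cells that express a gene and less of its RNA per cell cannot be told apart.

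Steap1 and Steap2 had higher means in LRP1 KO, and Steap3, like Steap4, had a lower one. Steap1 (chr5:5736317-5749326, minus strand), which lacks the NADPH-binding domain of its relatives, had WT values of 24.5, 18.2, 20.5 and 20.6 FPKM and LRP1 KO values of 28.0, 29.6, 24.6 and 25.9. The lowest KO value, 24.6, was just above the highest WT value, 24.5, and the mean rose from 21.0 ± 2.61 to 27.0 ± 2.19 (log2 difference 0.36, SE 0.09; limma adjusted p = 0.0358). That call was lost in 6 of 8 fits that each left out 1 library, all except those without WT 1 or LRP1 KO 4, with adjusted p between 0.0603 and 0.101 there. It was also lost when no filter on low values was applied (adjusted p = 0.0621). The log2 difference lay between 0.29 and 0.43 in those 8 fits.

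Steap2 (chr5:5664829-5694578, minus strand), a ferrireductase and cupric reductase, reached 28.0, 25.9, 41.6 and 33.5 FPKM in the WT libraries, against 42.2, 38.6, 45.2 and 37.3 in LRP1 KO. WT 3 lay within the KO range and the other WT libraries below it. The log2 difference was 0.35 (SE 0.13; limma adjusted p = 0.105), and without WT 3 it was 0.48 (adjusted p = 0.0316). With the mean log2(FPKM + 1) of the markers of a cell type as a term in the fit, it was 0.23 (endothelial), 0.28 (fibroblast) and 0.51 (macrophage), none of which passed. The macrophage sums did not overlap between the groups, so here and below that fit can hardly separate the term from the group. Steap3 (chr1:120190757-120272705, minus strand) was the lowest of the family, at 4.33, 6.35, 6.21 and 4.80 FPKM in WT and 2.99, 3.79, 3.76 and 4.93 in LRP1 KO. LRP1 KO 4 lay within the WT range and the other KO libraries below it. The log2 difference was -0.40 (SE 0.14; adjusted p = 0.0889), and without LRP1 KO 4 it was -0.50 (adjusted p = 0.0261). With marker levels as terms it was -0.09 (fibroblast), -0.13 (endothelial) and -0.90 (macrophage), none of which passed.

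The make-up of the family differed between the groups accordingly. Summed over the 4 genes, STEAP expression was 195 FPKM in WT (159.9 to 215) and 113 in LRP1 KO (93.9 to 135). Steap4 made up 69.4% ± 6.11 of that sum in WT and 35.5% ± 11.5 in LRP1 KO (SD, n = 4). The share of Steap2 was 16.7% ± 4.07 in WT and 36.9% ± 8.65 in LRP1 KO, and that of Steap1 was 11.1% ± 2.99 and 24.2% ± 3.30. Steap3 held 2.79% ± 0.438 and 3.42% ± 0.545. These shares contain the Steap4 difference by which the set was chosen and carry no test.

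**Figure D2:**
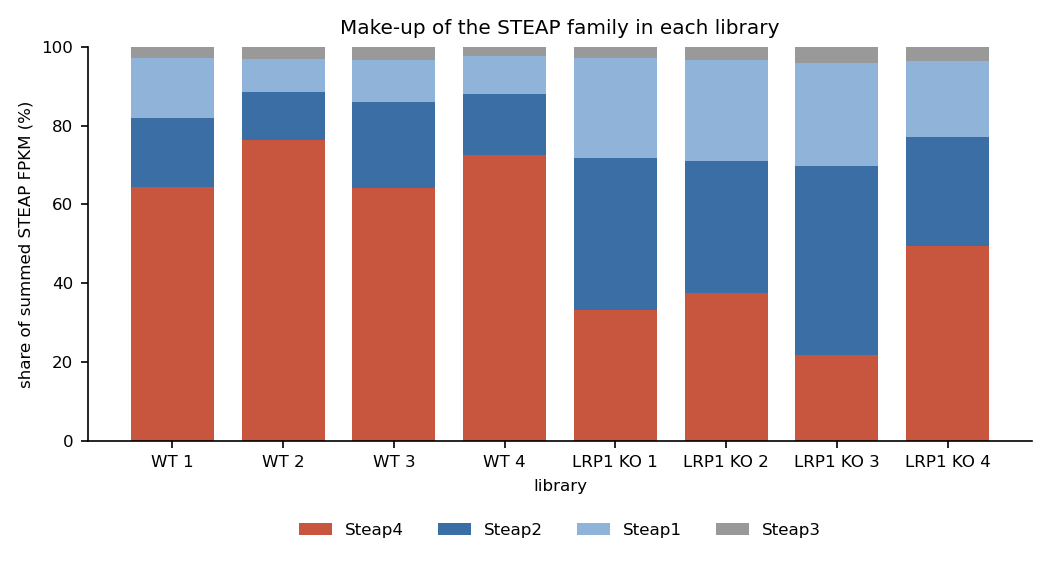
Share (%) of the summed FPKM of the 4 STEAP genes held by each gene, as stacked bars from 0 to 100%, in each of the 8 libraries. Steap4 holds 64.1% to 76.4% of the sum in WT libraries and 21.7% to 49.4% in LRP1 KO libraries.

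In the genome, Steap2 and Steap1 lie side by side on the minus strand of chromosome 5, 41.7 kb apart, and Steap4 lies 2211 kb further along on the plus strand, with no tested gene of matched position between Steap1 and Steap4. The nearest tested gene on the other side of Steap4 was Sri (sorcin, a calcium-binding protein), 63.9 kb away, at 93.4 ± 8.23 FPKM in WT and 107 ± 4.40 in LRP1 KO (log2 difference 0.19, SE 0.07; limma adjusted p = 0.0825). The nearest beyond Steap2 was A330021E22Rik, 0.59 kb away, with a log2 difference of 0.22 (SE 0.10; adjusted p = 0.162). Neither neighbour passed the test. In coding sequence the 4 STEAP genes shared 56.0% to 62.0% of aligned bases, and no stretch of 50 bases of the transcripts of Steap1, Steap3 or Steap4 occurred in another gene's transcript. For Steap2 such stretches made up 0.145%.

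Among the storage genes, Fth1 (chr19:9980598-9985098, plus strand) was at 6571 FPKM in all 4 WT libraries and in LRP1 KO 4, at 5692 in LRP1 KO 1 and 2 and at 4582 in LRP1 KO 3. These repeated values come from the quantile normalization, which gives a gene the value of its rank: at 71 of the 100 highest ranks all 8 libraries held the same value. Fth1 was at rank 2 in every WT library and in LRP1 KO 4, at rank 3 in LRP1 KO 1 and 2 and at rank 6 in LRP1 KO 3. The WT values have an SD of 0 for this reason, and the log2 difference of -0.23 (SE 0.11) did not pass the test (limma adjusted p = 0.153). Without LRP1 KO 4 it was -0.31 (adjusted p = 0.0345) and without LRP1 KO 3 it was -0.14. With marker levels as terms it was -0.07 (endothelial), -0.12 (fibroblast) and -0.70 (macrophage), none of which passed.

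Ftl1 (chr7:45457944-45459884, minus strand) was at 3645, 4582, 3055 and 3451 FPKM in WT 1 to 4 and at 3451, 3230, 3230 and 3451 in LRP1 KO 1 to 4. All KO values lay within the WT range, and its rank was 6 to 11 in WT and 9 to 10 in LRP1 KO. The log2 difference was -0.13 (SE 0.12; limma adjusted p = 0.470), and it moved between -0.02 without WT 2 and -0.21 without WT 3. Of the 50-base stretches of its transcript, 78.9% also occur in transcripts of other genes, 73.4% in those of Ftl1-ps1, so its reads may be split or shared with such copies and its level is uncertain. For Fth1 that share was 4.01%, with a processed pseudogene.

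**Figure D3:**
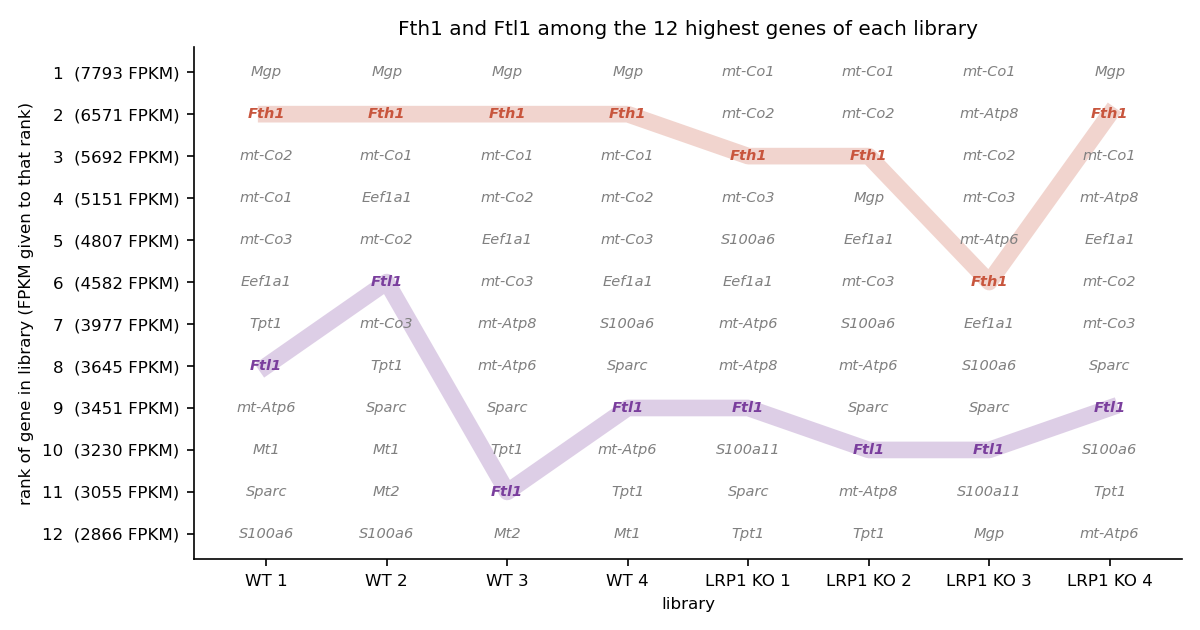
The 12 most abundant genes of each library by rank, with the FPKM that quantile normalization gives to each rank on the vertical axis, and bands that follow Fth1 and Ftl1 across the 8 libraries. Fth1 is at rank 2 in the WT libraries and LRP1 KO 4 and at ranks 3, 3 and 6 in LRP1 KO 1 to 3, and Ftl1 moves between ranks 6 and 11.

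Tfrc (chr16:32608920-32632794, plus strand), the receptor that imports transferrin-bound iron, measured 5.68, 4.78, 5.78 and 4.91 FPKM in WT 1 to 4, against 8.17, 7.32, 7.61 and 7.83 in LRP1 KO 1 to 4. Every KO library was above every WT library, LRP1 KO 4 included. The mean rose from 5.29 ± 0.515 to 7.74 ± 0.362 (SD, n = 4), a log2 difference of 0.48 (SE 0.08; limma adjusted p = 0.00720). Tfrc passed in all 8 fits that left out 1 library, with a log2 difference between 0.44 and 0.52, and in none of the 3 with a marker level as a term (0.44 to 0.55; adjusted p between 0.0797 and 0.146). It was the member with the largest rise. The 4 elements printed for its 3′ UTR are those of the searched form, and a link between them and its level was not tested.

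The exporter Slc40a1 (chr1:45908068-45926523, minus strand) was the least abundant member, at 2.61, 2.71, 3.26 and 2.93 FPKM in WT and 2.62, 2.26, 1.87 and 1.90 in LRP1 KO. LRP1 KO 1 was just above the lowest WT value and the other KO libraries were below all WT libraries. The log2 difference was -0.30 (SE 0.10; limma adjusted p = 0.0733). Cp (chr3:19957054-20009145, plus strand), the ferroxidase that works with ferroportin, was at 159.9, 254, 266 and 201 FPKM in WT and 137, 234, 179 and 223 in LRP1 KO. The groups overlapped broadly, with a log2 difference of -0.19 (SE 0.20; adjusted p = 0.534), and library 1 was the lowest of each group: without WT 1 the difference was -0.33 and without LRP1 KO 1 it was -0.04. With a marker level as a term its log2 difference was 0.14 (endothelial), 0.25 (fibroblast) and -1.12 (macrophage), so the direction turned in the former 2 fits and the size grew in the last.

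Hmox1 (chr8:75093621-75100589, plus strand), the inducible enzyme of heme breakdown, was at 451, 377, 411 and 429 FPKM in WT and 392, 343, 351 and 379 in LRP1 KO. The mean was 417 ± 31.4 in WT and 366 ± 23.1 in LRP1 KO, and LRP1 KO 1 and 4 lay above WT 2. The log2 difference was -0.19 (SE 0.07; limma adjusted p = 0.103). With the macrophage level as a term it was -0.10 and with the endothelial and fibroblast levels -0.19 and -0.25. In these libraries Hmox1 ranked between 181 and 230 among all genes.

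Leaving aside Steap4, for which no test is given, 2 of the other 9 members passed at an adjusted p under 0.05, Steap1 and Tfrc, both upward, and none of the 9 differed by 2-fold. Over all 11389 genes tested, 13.6% passed, 6.27% upward and 7.31% downward, and 1.62% passed with at least a 2-fold difference, 0.5% in the downward direction. Steap1, Steap4 and Tfrc did not overlap between the groups, against 19.6% of all genes. Since the contrast entered the choice of the set, nothing is read from these counts. The median log2 difference of the members was -0.19 and that of all genes tested -0.01. Without LRP1 KO 4, Fth1 and Steap3 also passed, both downward, while 2959 of 11297 genes passed in all.

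**Figure D4:**
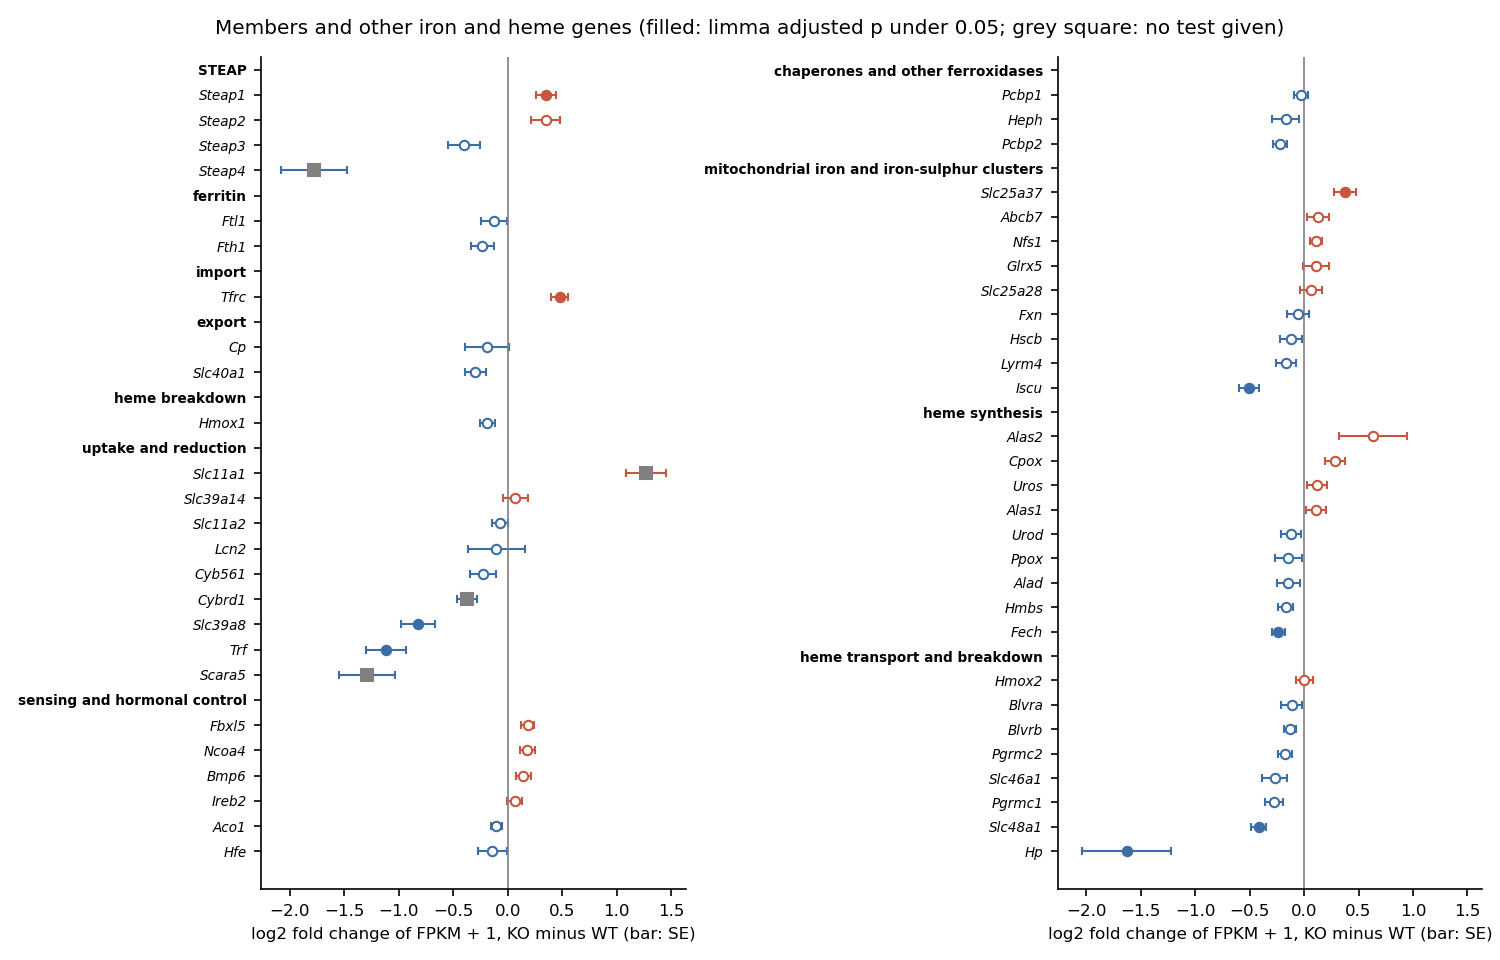
Log2 difference between LRP1 KO and WT of FPKM + 1 (horizontal axis, bars are SE) for the 10 members and the 44 tested other iron and heme genes, ordered by role, with filled points for genes at a limma adjusted p under 0.05 and grey squares for Steap4, Cybrd1, Scara5 and Slc11a1, for which no test is given. Steap4, Scara5, Trf and Hp lie below -1, Slc11a1 lies above 1, and the ferritin, sensing, heme synthesis and chaperone genes lie nearer 0.

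A wider list of 58 iron and heme genes placed the members in their pathway. Of these, 55 were in the table, 44 passed the filter on low values and 10 passed the test, 2 upward and 8 downward, which is 22.7% against the 13.6% of all genes, and 14 did not overlap, against 19.6% of all genes. Of the 10, Cybrd1, Scara5 and Slc11a1 met the filter only through the group in which they were higher, so their place among the tested genes depended on the difference itself. Their values are given below with no test. Among genes with at least 1 FPKM in every library, 7 of 41 iron and heme genes passed (17.1%), against 13.0% of all such genes. The median log2 difference was -0.12. With LRP1 KO 4 left out 16 passed, beside 2959 of 11297 genes in all, and with WT 2 left out 5 did, beside 502 of 11322 in all. Iscu, Slc39a8, Slc48a1 and Trf were among these 5, and both counts take in genes given with no test. The list was written with earlier results of these data known, and the counts are descriptions.

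Of the 6 genes of uptake and reduction with at least 1 FPKM in every library, Trf and Slc39a8 passed, beside the 13.0% of all such genes. Trf, the gene of transferrin and the most abundant of the list, measured 964, 936, 816 and 836 FPKM in the WT libraries, against 326, 452, 313 and 597 in LRP1 KO. Its mean fell to 47.6% of WT (log2 difference -1.12, SE 0.19; limma adjusted p = 0.00847), with no overlap, and as for Steap4 the highest KO value was that of LRP1 KO 4. Ligand and receptor of the main iron import route differed in opposite directions, Trf lower and Tfrc higher. Slc39a8, a zinc transporter that also carries iron, fell from 103 ± 19.4 to 57.4 ± 10.6 FPKM (-0.82, SE 0.16; adjusted p = 0.0134). With marker levels as terms neither passed: the difference of Trf was -2.001 (macrophage), -0.61 (endothelial) and -0.74 (fibroblast), and that of Slc39a8 lay between -1.01 and -0.60. Scara5, a receptor that can take up ferritin, was at 3.36 ± 0.965 FPKM in WT and 0.833 ± 0.595 in LRP1 KO, a log2 difference of -1.29 that was -0.66 with the endothelial, -0.74 with the fibroblast and -2.26 with the macrophage level as a term. Cybrd1, a plasma membrane ferrireductase of the cytochrome b561 family, was low, at 1.29 and 0.768 FPKM (-0.37). With a pseudocount of 0.1 in place of 1 the differences of Scara5 and Cybrd1 were -2.24 and -0.68.

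Slc11a1, the divalent metal transporter of phagosomes in macrophages, was at 0.815 ± 0.376 FPKM in WT and 3.41 ± 0.984 in LRP1 KO (log2 difference 1.27, SE 0.18). Only 1 WT library, and all 4 KO libraries, held at least 1 FPKM of it. The macrophage markers stood higher in the same libraries, 7 of 10 tested passing upward, and with the macrophage, endothelial and fibroblast levels as terms the difference was 0.34, 1.60 and 1.63. With a pseudocount of 0.1 it was 1.97. Its ubiquitous relative Slc11a2, which carries iron out of the endosome, was at 12.3 ± 0.961 in WT and 11.7 ± 0.803 in LRP1 KO (-0.07, SE 0.07; limma adjusted p = 0.557).

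None of the 6 tested genes of sensing and hormonal control passed, beside 13.6% of all tested genes. The iron regulatory protein genes Aco1 and Ireb2, whose products bind the elements printed above, did not differ past the test: Aco1 averaged 18.5 ± 0.487 FPKM in WT against 17.2 ± 0.621 in LRP1 KO, and Ireb2 averaged 13.1 ± 1.11 against 13.7 ± 0.586 (SD, n = 4). Ncoa4, the adaptor that sends ferritin to the lysosome and the most abundant of this group, was at 86.9 ± 6.23 and 98.6 ± 5.64 (log2 difference 0.18, SE 0.07; limma adjusted p = 0.0958). None of 3 chaperone and ferroxidase genes passed either. The iron chaperone Pcbp1 was at 120.2 ± 7.84 FPKM in WT and 118 ± 6.44 in LRP1 KO. The lowest adjusted p among these 9 genes was that of Pcbp2, 0.0541, and an unadjusted p under 0.05 was reached by 2 of the 6 sensing genes (Fbxl5 and Ncoa4) and by 1 of the 3 others (Pcbp2), against 33.7% of all tested genes.

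In mitochondria, 2 of 9 tested genes passed (22.2%), beside 13.6% of all tested genes. With lists this short nothing is read from the counts by role. Iscu, the scaffold on which iron-sulphur clusters are built, fell from 176 ± 18.3 to 124 ± 11.7 FPKM (log2 difference -0.51, SE 0.09; limma adjusted p = 0.00987), and the iron importer of the inner membrane Slc25a37 (mitoferrin 1) rose from 4.32 ± 0.287 to 5.94 ± 0.873 (0.38, SE 0.10; adjusted p = 0.0368). Of 9 genes of heme synthesis 1 passed (11.1%, beside the same 13.6%). This was Fech, which inserts iron into protoporphyrin, and it fell from 40.0 ± 1.24 to 33.9 ± 2.16 (-0.24, SE 0.06; adjusted p = 0.0303). Of 8 genes of heme transport and breakdown, 2 passed (25.0%, beside the same 13.6%). Slc48a1, which moves heme out of endolysosomes, fell from 155 ± 6.19 to 116 ± 10.1 (-0.42, SE 0.07; adjusted p = 0.00752). Haptoglobin (Hp), the plasma protein that captures free hemoglobin, was at 80.0, 109.6, 89.9 and 84.5 in WT and at 15.5, 36.7, 16.5 and 68.6 in LRP1 KO (-1.63, SE 0.41; adjusted p = 0.0321). Of 8 fits that each left out 1 library, Fech, Hp and Slc25a37 passed only in the one without LRP1 KO 4, with adjusted p between 0.0559 and 0.111 in the others. With marker levels as terms the difference of Hp was -0.455 (endothelial), -0.65 (fibroblast) and -3.87 (macrophage). Hp passed only in the last (adjusted p = 0.0475), where the macrophage sums did not overlap between the groups. The difference of Slc25a37 was 0.16, 0.22 and 0.75 in these fits, and that of Fech -0.14, -0.18 and -0.30. That of Iscu lay between -0.75 and -0.38 in them, and that of Slc48a1 between -0.54 and -0.31. Slc25a37, Fech, Iscu and Slc48a1 passed in none of these fits, and with no filter on low values Slc25a37 and Hp did not pass either.

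The cell-type markers moved with these results in several ways. Fibroblast genes summed to 1998 to 3203 FPKM in LRP1 KO against 2415 to 3610 in WT, and 2 of 10 tested passed downward. Over all tested genes, 6.27% passed upward and 7.31% downward. Of 13 tested endothelial genes 1 passed upward, of 7 leukocyte genes 6 did, and of 8 mural cell genes 4 did, with sums of 8.09 to 13.9 against 47.2 to 94.4 for leukocyte and 670.3 to 836 against 1039.7 to 1627 for mural cell genes, WT first. Adipocyte genes, of interest for Steap4, summed to 530.6 to 639.7 in WT and 422 to 582 in LRP1 KO, and 1 of 3 tested passed downward. Most of these sums came from Fabp4 (315 to 411 FPKM) and Lpl (100 to 239). Adipoq, Plin1, Cidec and Lep were at or below 0.711 FPKM in every library. Hepatocyte genes, of interest for Trf, Hp and Cp, which the liver secretes, summed to at most 1.69 FPKM in any library, with Apoc3 and Cyp3a11 listed at 0 in all. Kupffer cell genes summed to 0.399 to 1.48 in WT and 2.58 to 17.9 in LRP1 KO. Erythroid genes summed to 6.29 to 19.8 and 12.5 to 18.6, most of it from Alas2, with Hba-a1, Hba-a2 and Slc4a1 listed at 0 throughout. Cardiomyocyte genes summed to 101 to 155 and 87.8 to 123, and lung epithelial genes to 4.13 to 7.35 and 3.63 to 6.78. Of the cardiomyocyte sum, Tnnt2 held 81.6 to 152 FPKM and Nppa 1.52 to 10.1, while Myh6, Myl2, Actc1, Ryr2 and Tnni3 stayed at or below 1.97. The part of these cells in the results was not tested, beyond fits with a marker level as a term.

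With the endothelial level as a term the log2 difference of Steap4 was -1.14 (SE 0.34), with the fibroblast level -1.25 (SE 0.31) and with the macrophage level -3.54 (SE 0.40). All 3 differences were negative, but the size moved by more than 1.5 times in the endothelial and macrophage fits. The macrophage sums did not overlap between the groups, so the size of -3.54 is uncertain. The median SE of all genes was 0.211 with that term, against 0.0880 in the main fit. Steap1 stayed between 0.28 and 0.33 without passing. In these fits few genes of any kind passed, 46 with the macrophage, 149 with the endothelial and 240 with the fibroblast level. Within the groups, deviations of Steap4 from its group mean followed the macrophage level (Pearson r = 0.86) and the fibroblast level (r = 0.67) and ran against the endothelial level (r = -0.67), while those of Steap3 and Cp followed the fibroblast level (r = 0.91 and 0.86). These are descriptions over 8 libraries that share 1 normalization.

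**Figure D5:**
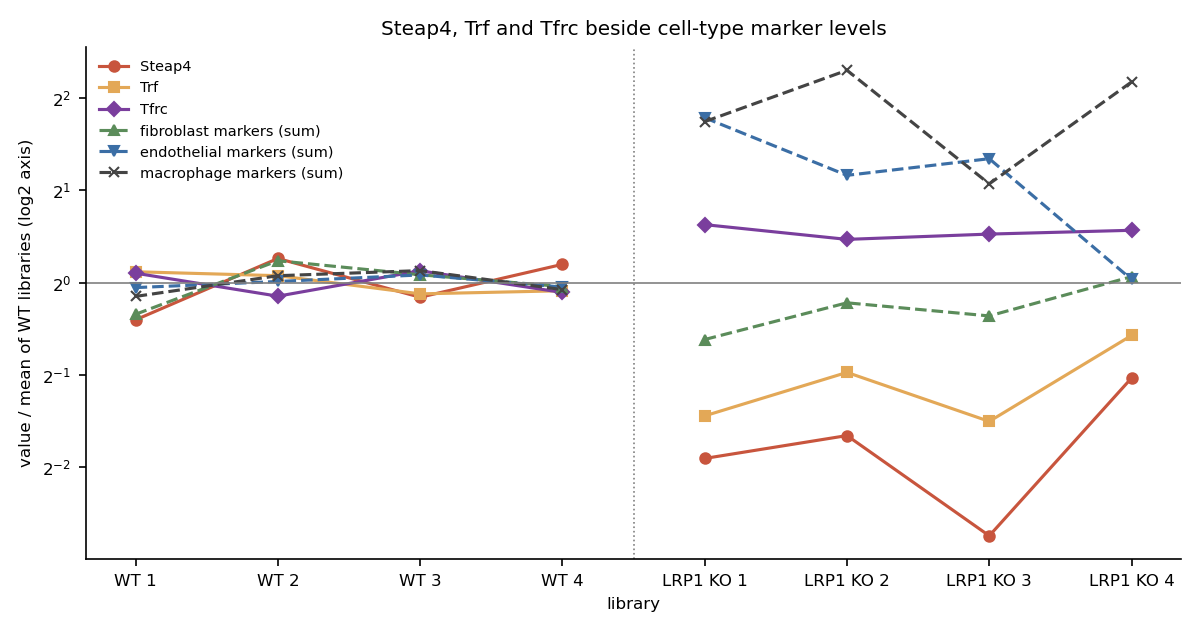
Steap4, Trf and Tfrc (solid lines) and the summed FPKM of fibroblast, endothelial and macrophage markers (dashed lines) in each library, divided by the mean of the WT libraries, on a log2 axis. In LRP1 KO 4 the endothelial sum (157 FPKM) lies within the WT range, the macrophage sum (517 FPKM) above it, Steap4 (66.6 FPKM) below all WT libraries and Tfrc (7.83 FPKM) above them.

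The genes whose deviations from the group means were most like those of Steap4 over the 8 libraries were Gramd4 (Pearson r = 0.98), Rpl32 (0.96), Mblac1 (0.96), Fabp4 (0.95) and Fahd2a (0.95). None of these passed the test between the groups, and their log2 differences lay between -0.37 and 0.01, so the likeness lies in how the libraries vary within a group. For Tfrc they were Gm8773 (0.98), Tmem20 (0.96), Slc2a10 (0.96), Sumo3 (0.95) and Ywhaq (0.92). Of these, Gm8773 was higher in LRP1 KO (2.70 to 4.83 FPKM, log2 difference 0.66), and the other 4 had log2 differences between -0.10 and 0.02. Among the members themselves, Steap4 varied most closely with Fth1 (r = 0.90), whose values are set by rank and do not vary in WT, and Steap3 with Cp (r = 0.88). Steap1 and Steap2 did not vary together (r = -0.07), although they lie side by side and both had higher means in LRP1 KO. All of these are descriptions over 8 libraries that were normalized together. The 5 genes given for Steap4 and for Tfrc have the highest r of all tested genes. Such a choice over 8 libraries can yield high r values by itself, so no link is read from them.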

How the data were processed

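Total RNA (RNeasy kit, TruSeq libraries per the labels) was sequenced from 4 WT and 4 LRP1 KO libraries, grouped and numbered by their titles. The authors deposited 1 table of FPKM values that had been quantile normalized across the libraries: the values are not whole, the highest is 7793 in each library, and sorted values of the libraries differed by a median of 0.576%. The unit was inferred. The submitters' processing notes name TopHat2, Cufflinks and build mm10; the study's methods name trimGalore, STAR, featureCounts and a count test, and which of these made the table is not stated. Depth is therefore unknown, no counting error can be given, and the count test of the study could not be used. A broad shift of many genes in one direction would be removed by such normalization.

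From these values log2(FPKM + 1) was computed, genes with at least 1 FPKM in at least 4 libraries were kept (11389 of 22520), and groups were compared with limma 3.58.1 (R 4.3.3, moderated variances with a mean-variance trend, group as the only term) with Benjamini-Hochberg adjustment over all tested genes. Differences on this scale understate ratios of low genes. The fit was tested on simulated data. Genes named are the members, Lrp1, other iron genes with an adjusted p under 0.05 or the highest level of their role, the 5 genes most like Steap4 and like Tfrc (the member with the largest rise), tested neighbours of Steap1, Steap2 and Steap4, and markers of cell types; other genes were named after their values were seen. The members and lists were chosen with earlier results of these data known. Positions and transcripts came from GENCODE M21 (GRCm38), which matched 21740 of 22520 identifiers. Alternatives were another pseudocount (0.1), no filter, rescaled libraries, no trend, a replicate block, marker levels as covariates and each library left out.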

Additional observations from a re-analysis of the deposited data

How the results depend on the processing

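Of 332 recomputed differences of 21 named genes under 16 alternatives, 255 kept their direction and side of the threshold, 72 kept the direction and lost the threshold, 3 gained it and 2 reversed: Cp, at 0.14 with the endothelial and 0.25 with the fibroblast covariate. Leaving aside Steap4, which was chosen for its difference, 2 members passed at an adjusted p under 0.05. With each of the macrophage, endothelial and fibroblast covariates 0 did. The counts that follow take in Steap4 and, among other iron genes, Cybrd1, Scara5 and Slc11a1, for which no test is given. Other iron genes numbered 10, and 1 with each; all genes numbered 1547, and 46, 149 and 240. With each library left out in turn, members numbered 2 to 5, other iron genes 5 to 16 and all genes 433 to 2959, in each case the highest without LRP1 KO 4. Another pseudocount, no filter, rescaling and no trend gave 2 to 3 members, 9 to 10 other iron genes and 1163 to 1568 genes. The rescaled split was 825 upward and 743 downward, against 714 and 833. The labels give both groups numbers 1 to 4, but deviations of same-numbered libraries correlated at 0.16, 0.14, 0.34 and -0.31, so the numbers were not taken as pairs, although 3 of 4 KO libraries correlated best with their own number. With the number as a replicate block 2 members (not Steap1), 8 other iron genes (not Cybrd1 and Slc25a37) and 1013 genes passed. The cause of these changes was not tested, and the depth behind each value is unknown.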

Other observations

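Genes too low for the test were looked at after their values were seen. Hamp, the gene of the iron hormone hepcidin, which makes cells degrade ferroportin, was listed at 0 in all 4 WT libraries and at 1.14, 0.543, 0.517 and 0.232 FPKM in LRP1 KO 1 to 4. Its relative Hamp2 was listed at 0 in all WT libraries and in LRP1 KO 3 and 4, and at 0.170 and 0.169 in LRP1 KO 1 and 2. Tfr2 and Tmprss6, which act on hepcidin in the liver, were below 0.1 FPKM in every library, and Hpx, the gene of hemopexin, was between 0.213 and 0.779.

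Alas2, the erythroid enzyme that starts heme synthesis, measured 19.6, 6.35, 6.09 and 11.4 FPKM in WT 1 to 4, against 15.7, 18.5, 12.4 and 16.7 in LRP1 KO 1 to 4, although the hemoglobin genes Hba-a1 and Hba-a2 and the erythroid anion exchanger Slc4a1 were listed at 0 in all 8 libraries. Alas2 was the only gene of the wider iron list with an IRE of the form searched, in its 5′ UTR and across an exon junction (GRCm38, plus strand of chromosome X), with the loop in capitals.
Alas2: ttggttcgtcctCAGTGCagggcaacagg
Its groups overlapped (log2 difference 0.63, SE 0.31; limma adjusted p = 0.183), and without WT 1, the highest of all libraries, it passed.

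Haptoglobin (Hp) and transferrin (Trf), proteins that the liver secretes, were at 91.0 ± 13.0 and 888 ± 72.8 FPKM in WT, while the 8 hepatocyte markers summed to 1.10 to 1.69. In LRP1 KO 4 both were closer to WT than in the other KO libraries, at 68.6 for Hp and 597 for Trf, as were Steap4 (66.6) and Fth1 (6571).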
